A study of Homo sapiens with 3 samples.

Results

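Antigen presentation genes were described in the human melanoma line SK-Mel-28, on Affymetrix U133 Plus 2.0 arrays. The set holds 35 listed genes of the MHC class I and class II pathways. They were chosen by the known roles of their products, with earlier results of these data known. Every probe set whose platform annotation names at least 1 of them was kept. This gave 95 of 54613 probe sets for 34 genes, and 7 of the 95 are shared with another gene, mostly among the DR beta chains. IFI30, a lysosomal thiol reductase, had no named probe set in the annotation used here and was not analysed here.

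Stable lines carried the plasmid pSilencer 3.1-H1 neo, which encodes either a scrambled hairpin or one directed at MELTF (melanotransferrin, MTf), a transferrin homologue of the cell surface. Cell line and plasmid backbone are therefore shared by both groups. There was 1 array of scrambled cells and there were 2 of siRNA cells, titled B1 and B2 and called siRNA array 1 and siRNA array 2 here. Whether B1 and B2 are separate clones or cultures is not given in the labels. A p-value here covers no more than the spread between the 2 siRNA arrays, pooled with that of other probe sets. That spread can be technical, and the single scrambled array adds nothing to it. With 1 array against 2, the number of arrays limits the precision of every value, and the scrambled level of each gene rests on a single array.

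MHC class I molecules pair a polymorphic heavy chain with B2M and show peptides of cytosolic proteins to CD8 T cells. Those peptides are cut by the proteasome, pumped into the endoplasmic reticulum by TAP1 and TAP2, trimmed by ERAP1 and ERAP2 and loaded with the help of tapasin (TAPBP), calreticulin (CALR) and PDIA3. Class II molecules are alpha and beta chain pairs that are held by the invariant chain CD74, exchange it for peptides in endosomes with the help of HLA-DM, and are normally found on professional antigen-presenting cells, although many melanomas carry them too. NLRC5 drives class I genes and CIITA drives class II genes through promoters that bind the RFX, CREB and NF-Y factors.

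Signals are linear probe set intensities. Differences are given on the scale log2(signal + 47.4), as siRNA minus scrambled, with SE and two-sided Benjamini-Hochberg adjusted p-values from limma over 27306 probe sets whose mean lies above the median. Of the 34 genes, 32 had a probe set past that filter (65 probe sets), and each is represented by its brightest one. The adjusted p threshold was 0.05. ERAP2 and HLA-DQA1 had probe sets, but none past the filter. The median of all 13595 genes tested was 0.083 on this scale, and it was -0.087 with each array centred on its median and 0.013 with quantile normalization, so differences are read against those values.

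The arrays differed in a few respects that touch every gene. Control probe sets for ribosomal RNA were brighter on siRNA array 1 (median ratio to the scrambled array 3.76 over 6 probe sets) than on siRNA array 2 (1.06), and their part in the results was not tested. MELTF itself was lower on both siRNA arrays in 2 of its 4 probe sets and higher on both in the other 2, and none passed the threshold. The brightest gave signals of 32608 (scrambled), 18968 and 18974 (limma adjusted p = 0.0699), and the next gave 8284, 10567 and 11199 (adjusted p = 0.318). Melanocytic markers were bright, with MLANA between 61769 and 69169. Of 6 measured, 2 were higher on both siRNA arrays, 1 was lower on both, and 0 passed the limma threshold. The 2 furthest from 0 were TYR and MITF. TYR read 19988, 35193 and 37555 (0.86, limma adjusted p = 0.0529), and MITF read 52684, 42992 and 34223 (-0.46, limma adjusted p = 0.236). Among 10 leukocyte markers, some of them of cells that normally carry class II, 9 had a named probe set. Their summed signals were 2946.5 (scrambled), 2775 (siRNA array 1) and 2374 (siRNA array 2). LCP1 alone made up 1130.1, 477.8 and 384.7 of these sums, so that their fall does not describe the other markers. On these arrays 3, 3 and 4 of the 9 lay below 97.2, the highest signal of a bacterial trp control. The pan-leukocyte gene PTPRC read 94.7, 24.2 and 47.2 and the monocyte gene CD14 read 8.9, 9.1 and 15, below that level throughout, while 4 others passed the filter. Of these, LCP1 read 1130.1, 477.8 and 384.7 (-1.31, limma adjusted p = 0.0804), ITGAM read 261.5, 235.3 and 205.4, CD68 read 767.2, 1370.5 and 932.4, and CD79A read 278.8, 362.6 and 498.4. Thus 2 of these 4 were higher and 2 lower on both siRNA arrays. Also not past the filter were CD3E (170.7, 146.6 and 129), MS4A1 (92, 122.8 and 67.2) and ITGAX (142.6, 26.3 and 94.8).

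Antigen presentation genes were mostly higher on the siRNA arrays, by modest amounts. Of the 32 measured genes, 22 had both siRNA signals above the scrambled signal, 2 had both below and 8 had the scrambled signal between the siRNA signals; over all genes tested 45.8% were above and 33.7% below. The median difference was 0.43 (by array 0.40 and 0.49, siRNA array 1 first as throughout), or 0.26 with arrays centred and 0.38 with quantile normalization. A single gene, PDIA3, passed the threshold, and it was higher, against 2.59% of all genes called and 1.42% called higher. At an unadjusted p under 0.05 there were 9 genes higher and 0 lower by limma, where all genes gave 13.6% and 9.25%. In these bulk RNA samples, a change in the number of cells that carry a transcript and a change in its amount per cell cannot be told apart.

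**Figure D1:**
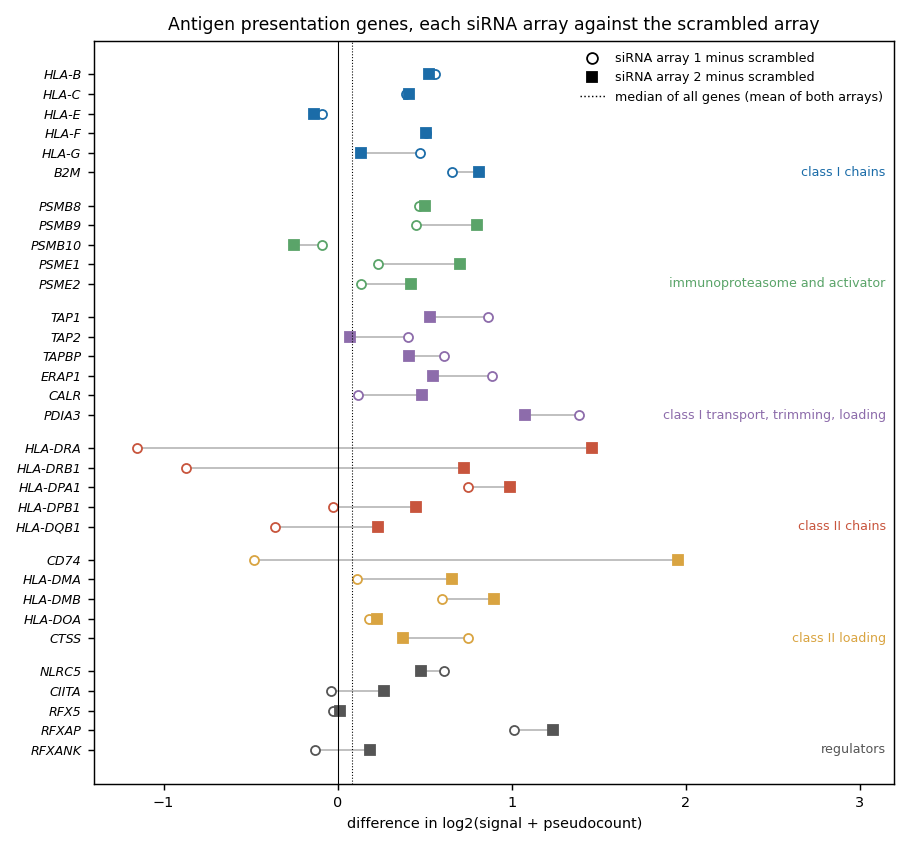
Difference in log2(signal + pseudocount) of each siRNA array from the scrambled array for the 32 measured genes, by role (open circles, siRNA array 1; filled squares, siRNA array 2; dotted line, median of all genes). Class I genes lie mostly to the right of 0 on both arrays, whereas HLA-DRA, HLA-DRB1 and CD74 lie left of 0 on siRNA array 1 and right of 0 on siRNA array 2.

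The upstream sequences that bear on these genes are shown for 3 members, 1 whose signal was higher on both siRNA arrays (B2M) and 2 whose signal moved apart between them (HLA-DRB1 and CD74). They are the 200 bases before the RefSeq start (build GRCh38.p14), 5′ to 3′ on the gene's strand. Capitals mark matches on either strand to 3 short motifs, namely the core of the interferon-stimulated response element (GAAA, any 2 bases, GAAA), TGACG of the X2 box that binds CREB family factors, and CCAAT of the Y box that binds NF-Y. The B2M window lies at chr15:44711317-44711516 on the plus strand, the HLA-DRB1 window at chr6:32589849-32590048 and the CD74 window at chr5:150412911-150413110, both on the minus strand.
B2M: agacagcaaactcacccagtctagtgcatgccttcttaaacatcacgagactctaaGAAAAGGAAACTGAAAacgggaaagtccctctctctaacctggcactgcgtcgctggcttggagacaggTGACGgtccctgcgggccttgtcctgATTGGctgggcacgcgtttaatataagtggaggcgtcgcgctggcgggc
HLA-DRB1: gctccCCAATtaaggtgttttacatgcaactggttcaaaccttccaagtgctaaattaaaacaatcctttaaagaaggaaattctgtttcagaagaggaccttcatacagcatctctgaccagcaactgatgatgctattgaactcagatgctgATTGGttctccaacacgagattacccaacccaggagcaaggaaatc
CD74: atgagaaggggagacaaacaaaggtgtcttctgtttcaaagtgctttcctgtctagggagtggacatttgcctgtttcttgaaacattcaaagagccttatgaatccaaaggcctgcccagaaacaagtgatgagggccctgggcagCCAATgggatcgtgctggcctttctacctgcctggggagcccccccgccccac

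The B2M window holds all 3 motifs, with 2 overlapping interferon element matches. The HLA-DRB1 and CD74 windows hold exact matches to the Y box alone (2 and 1). Only exact letters were matched, so that an X2 box with other letters would be missed. In the 200 bases before their starts, HLA-DPA1, PSMB9 and RFXAP held no interferon element and no Y box match. Each held 1 TGACG match, as B2M did, for HLA-DPA1 before 1 of its 2 starts only. These genes, like B2M, were higher on both siRNA arrays. Whether motifs and signals go together was not tested. RefSeq promoter windows of 300 bases around a start were matched by symbol for 29 of the 35 genes, in 40 windows. The interferon core was present in 12 of the 40 windows, 1 for each of 12 genes, against 3.57% of all 35116 windows. Those 12 were HLA-F, B2M, PSMB8, PSMB10, PSME1, PSME2, TAP1, TAP2, TAPBP, ERAP1, ERAP2 and RFX5, so that no class II chain with a window was among them. TGACG was present in 14 of the 40 windows (24.6% of all windows) and CCAAT in 19 (34.6% of all windows). The CCAAT windows include that of PSMB9, whose match does not lie within the 200 bases described above. A match is a description of letters, not of a bound factor.

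The class I chains were higher on both siRNA arrays in 5 of 6 genes, with a gap between the siRNA arrays of at most 0.15 on the log2 scale except for HLA-G. B2M, the light chain shared by all class I molecules, read 26604 (scrambled) against 42059.5 and 46806, a difference of 0.74 ± 0.17 (SE, adjusted p = 0.0738). Its second bright probe set gave nearly the same, 25922 against 40987 and 41916 (0.68, adjusted p = 0.0804). Both siRNA signals thus lay well above the single scrambled signal in both probe sets, short of the threshold. B2M passed it with quantile normalization (0.83, adjusted p = 0.0335) and with arrays centred (0.57, adjusted p = 0.0310), while over all its alternatives the adjusted p ran from 0.0310 to 0.271. The remaining, dim probe set of B2M read 94.6, 14.3 and 59.2, below the bacterial control level on all arrays.

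Among the heavy chains, HLA-B and HLA-C present peptides to T cells on most cell types. HLA-B read 12336 against 18172 and 17757 (0.54 ± 0.18, SE, adjusted p = 0.160), and its other 2 probe sets differed by 0.31 and 0.38. HLA-C read 16135 against 21182 and 21421 (0.40 ± 0.18, SE, adjusted p = 0.262), and its other probe sets ranged from 0.088 to 0.63. All 7 probe sets of these 2 genes were higher on both siRNA arrays.

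HLA-F, a non-classical chain that can reach the surface without peptide, read 7698 against 10973 and 10953 (0.51 ± 0.19, SE, adjusted p = 0.205). Its dimmest probe set, 221.3 against 414.6 and 481.7, differed by 0.88. HLA-G, which binds inhibitory receptors of lymphoid and myeloid cells, read 8269 against 11514 and 9082.5 (0.30 ± 0.22, SE, adjusted p = 0.497), so that siRNA array 2 lay below siRNA array 1 by 0.34 on the log2 scale. Another of its probe sets read 2411 against 4490.5 and 4529 (0.89, adjusted p = 0.0881). HLA-E, which presents leader peptides of other class I chains to NKG2 receptors, stood apart from the other chains at 13584 against 12750 and 12353 (-0.11 ± 0.19, SE, adjusted p = 0.790). Its other 2 probe sets differed by 0.016 and 0.053 with the scrambled signal between the siRNA signals, and with quantile normalization HLA-E differed by 0.0050.

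These heavy chain values are not fully independent of each other. Of the 17 heavy chain probe sets past the filter, 15 carry the x suffix, with which the manufacturer marks possible cross-hybridisation to other transcripts, and class I chains are close in sequence. Of the 17, 14 were above the scrambled array on both siRNA arrays, 1 was below on both and 2 had the scrambled signal between, against 46.4% and 30.9% of all probe sets. The median over the 6 class I chain genes was 0.45 (by array 0.49 and 0.46), and 0.55 with quantile normalization and 0.28 with arrays centred.

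Peptide supply showed the same direction in most genes without passing the test. PSMB8 and PSMB9 are the interferon-inducible catalytic subunits encoded next to TAP1 and TAP2. PSMB9 read 1129 against 1561 and 2001.5 (0.63 ± 0.28, SE, adjusted p = 0.262), and PSMB8 read 1449 against 2020 and 2069 (0.48 ± 0.25, SE, adjusted p = 0.329). The third inducible subunit, PSMB10, was slightly lower on both arrays at 1374 against 1289.5 and 1149 (-0.17 ± 0.27, SE, adjusted p = 0.781). PSME1 and PSME2 form the PA28 cap that opens the proteasome. PSME1 read 2844 against 3353 and 4660 (0.47 ± 0.27, SE, adjusted p = 0.383) and PSME2, on a probe set shared with a microRNA gene, read 4220 against 4643 and 5662 (0.28 ± 0.23, SE, adjusted p = 0.557). Of these 5 genes 4 were higher on both siRNA arrays, with a median of 0.47 (by array 0.23 and 0.50).

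The constitutive proteasome list of 17 genes did not share that direction as a whole. Its median was -0.11 (by array -0.10 and -0.044), with 6 genes higher on both arrays, 11 lower on both and 0 past the limma threshold (3 higher and 1 lower at an unadjusted p under 0.05). The subunits that PSMB9 and PSMB8 replace were its 2 furthest members. PSMB6 read 4733 against 9361 and 11406 (1.12 ± 0.22, SE, adjusted p = 0.0529) and PSMB5 read 6513 against 10358 and 11602 (0.75 ± 0.20, SE, adjusted p = 0.104). PSMB7, which PSMB10 replaces and which was singled out after its values were seen, read 42334.5 against 31143 and 30866 (-0.45 ± 0.16, SE, adjusted p = 0.186). For each of the 3 pairs the inducible and the constitutive subunit thus lay on the same side of the scrambled array.

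Peptide transport, trimming and loading held the gene that passed. PDIA3, the thiol oxidoreductase of the loading complex that also acts on other glycoproteins with calnexin and calreticulin, rose from 3283 to 8654 and 6973 (1.23 ± 0.23, SE, adjusted p = 0.0485). Its other probe sets differed less, by 0.68 (753.5 against 1184 and 1285, adjusted p = 0.222) and 0.35 (2546 against 2865 and 3698, adjusted p = 0.499). All 3 were higher on both siRNA arrays. The call was lost in 7 of 10 alternatives, where adjusted p reached 0.182, and the mean of its probe sets differed by 0.75 (adjusted p = 0.107).

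The peptide pump subunit TAP1 read 669 against 1256 and 986.1 (0.70 ± 0.29, SE, adjusted p = 0.242). Its partner TAP2 read 1188 against 1586 and 1252 (0.24 ± 0.28, SE, adjusted p = 0.693) in its brightest probe set, while dimmer ones differed by -0.23 and 0.011. Both TAP1 siRNA signals thus lay above the single scrambled signal, short of the threshold, and the direction for TAP2 depended on the probe set. The bridging factor TAPBP read 2138 against 3289 and 2853 (0.51 ± 0.24, SE, adjusted p = 0.293), and the trimming peptidase ERAP1 read 1097 against 2068 and 1623 (0.72 ± 0.27, SE, adjusted p = 0.206). The dimmest ERAP1 probe set past the filter, 200.8 against 179.7 and 222.8, showed no common direction.

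The lectin chaperone CALR read 4552 against 4945 and 6402 (0.30 ± 0.24, SE, adjusted p = 0.538), with other probe sets at 0.81 and 0.079. The second trimming peptidase, ERAP2, stayed dim in all 5 probe sets, with no signal above 159.3 and none past the filter. All 6 measured genes of this role were higher on both siRNA arrays in their brightest probe set, with a median of 0.60, or 0.43 with arrays centred and 0.39 with the mean of each gene's probe sets.

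Class II showed a different picture. HLA-DRA, HLA-DRB1 and CD74 were lower than the scrambled array on siRNA array 1 and higher on siRNA array 2, while HLA-DPA1 was higher on both. HLA-DRA, the alpha chain shared by all DR molecules, read 1167.5 (scrambled), 499.1 (siRNA array 1) and 3293 (siRNA array 2). Its second probe set read 906.7, 172.1 and 1602. The scrambled signal lay between the siRNA signals in both, so that the average difference of 0.15 ± 0.87 (SE, adjusted p = 0.946), which was -0.016 with arrays centred and -0.26 as the mean of both probe sets, describes neither array.

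HLA-DRB1, a DR beta chain, followed the same order at 1347, 714.6 and 2256.5 (-0.073 ± 0.57, SE, adjusted p = 0.962). Its 3 shared probe sets past the filter, which also name other DR beta genes and in part HLA-DQB1, read 951.8, 587.8 and 1511, then 1102, 611 and 2273, then 778.9, 305.3 and 1638. All 6 DR probe sets past the filter had siRNA array 1 lowest and siRNA array 2 highest, an order that 12.6% of all probe sets showed, although probe sets for DR beta chains can read the same transcripts. CD74, which fills the groove of new class II molecules, read 806.2, 564.3 and 3263 (0.74 ± 0.82, SE, adjusted p = 0.674). The 2 dimmer CD74 probe sets did not repeat this order and read 13.8, 86.9 and 34.2 and 131.3, 154 and 204.3, not past the filter.

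**Figure D2:**
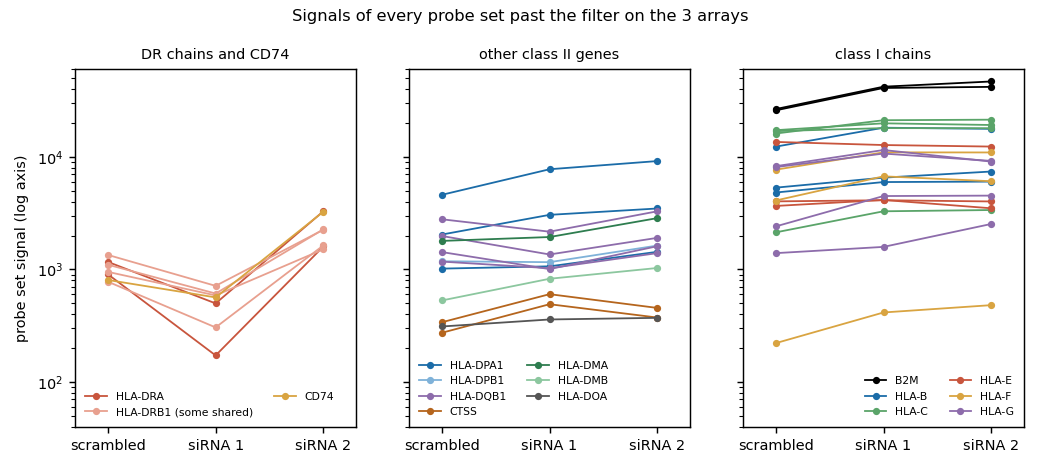
Signal on a log axis of every probe set past the filter on the scrambled array, siRNA array 1 and siRNA array 2, for the DR chains with CD74, the other class II genes and the class I chains (1 line per probe set, colour by gene). The DR and CD74 lines dip on siRNA array 1 and peak on siRNA array 2, whereas most class I chain lines are nearly flat between the siRNA arrays.

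The gap between the siRNA arrays was among the widest of all genes for this trio. On the log2 scale siRNA array 2 exceeded siRNA array 1 by 2.61 for HLA-DRA, a 6.60-fold ratio of signals that ranked 6 of 13595 genes by size. For CD74 the gap was 2.44 (5.78-fold, rank 9) and for HLA-DRB1 it was 1.60 (3.16-fold, rank 89). The class I chains had a median absolute gap of 0.039, against 0.22 over all genes and 0.59 for the class II chains. Class I chain probe sets are bright, and their gap was not set against genes of like brightness. Each siRNA array is single, so that no test of the gap was possible, and differences between cultures and between hybridisations cannot be told apart in it.

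**Figure D3:**
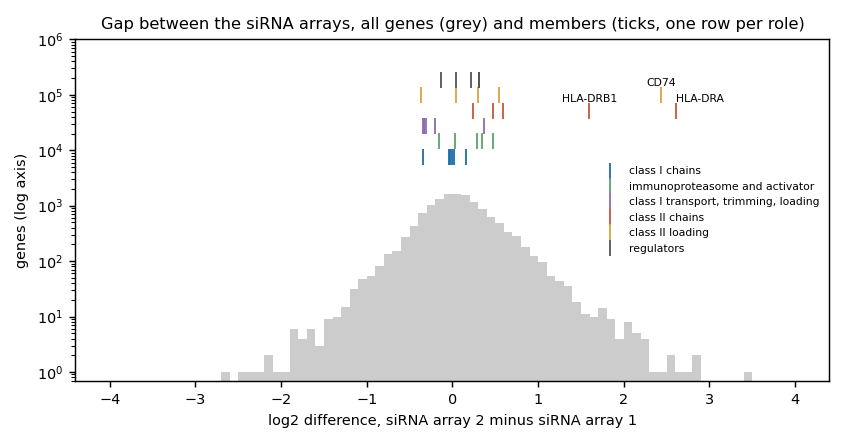
Histogram of the log2 difference between siRNA array 2 and siRNA array 1 over 13595 genes (grey, number of genes on a log axis), with the members as ticks in 1 row per role, whose height carries no value. HLA-DRA, CD74 and HLA-DRB1 lie at 2.61, 2.44 and 1.60, far from the other ticks, and class I chains lie near 0 except for HLA-G.

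The DP and DQ chains departed less. HLA-DPA1, the DP alpha chain, read 4601 against 7768.5 and 9183 (0.87 ± 0.22, SE, adjusted p = 0.0880), and its other probe sets differed by 0.66 and 0.27, all higher on both arrays. Its partner HLA-DPB1 read 1182 against 1160.5 and 1630 (0.21 ± 0.30, SE, adjusted p = 0.753), so that only siRNA array 2 was higher. HLA-DQB1 read 2791 against 2165 and 3287 (-0.064 ± 0.30, SE, adjusted p = 0.935) in its brightest probe set, the DR order on a smaller scale, and its other unshared probe sets past the filter differed by -0.29, -0.16 and 0.027. HLA-DQA1 stayed dim. A probe set shared by HLA-DQA1 and HLA-DQA2 read 119, 42.6 and 467.4 and was not past the filter, and the other 3 for HLA-DQA1 stayed at or below 83.1.

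Of the 14 class II chain probe sets past the filter, 10 had siRNA array 1 lowest and siRNA array 2 highest and 0 the reverse order, against 12.6% and 10.1% of all probe sets. Of the 14, 8 carry the x suffix and some are shared between genes, so that they are not independent counts. By gene, siRNA array 1 was lowest and siRNA array 2 highest for 4 of 5 class II chains and for CD74, against 12.7% of all genes. The median of the class II chains was 0.15, made of -0.36 and 0.72 by array, and it was -0.016 with arrays centred.

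The endosomal genes other than CD74 were higher on both arrays. The HLA-DM genes encode the exchange factor that removes the CD74 fragment. HLA-DMB read 529.9 against 826.3 and 1030 (0.75 ± 0.30, SE, adjusted p = 0.223), and HLA-DMA read 1792.5 against 1941 and 2858 (0.39 ± 0.30, SE, adjusted p = 0.520). CTSS, the cysteine protease that cuts CD74, read 339.2 against 602.9 and 454.9 (0.56 ± 0.34, SE, adjusted p = 0.411), with a second probe set at 0.57. HLA-DOA, part of the inhibitor of HLA-DM, read 311.2 against 359.3 and 371.5 (0.20 ± 0.35, SE, adjusted p = 0.802) in its brightest of 5 probe sets, and -0.0016 with quantile normalization. The median over the 5 measured genes of this role, CD74 included, was 0.56 (by array 0.18 and 0.66).

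Among 5 regulators, 2 were higher on both siRNA arrays, RFXAP and NLRC5, and the other 3 had the scrambled signal between the siRNA signals. None passed the threshold. RFXAP, a subunit of the RFX complex on class I and class II promoters, read 286.3 against 627.4 and 738.5 (1.13 ± 0.32, SE, adjusted p = 0.114). With PDIA3 it was 1 of the 2 members at least 2-fold higher on both arrays, where 4.02% of all genes were. The other RFX subunits did not follow it in their brightest probe sets. RFX5 read 2689 against 2634 and 2715.5 (-0.0078 ± 0.23, SE, adjusted p = 0.991) and RFXANK read 2228.5 against 2036 and 2538 (0.028 ± 0.26, SE, adjusted p = 0.968), or -0.14 with arrays centred. A dimmer RFX5 probe set read 835.2 against 1291 and 1486 (0.70, adjusted p = 0.209).

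CIITA, the class II transactivator, was dim, and its brightest probe set read 254.6, 246.4 and 315.7 (0.11 ± 0.39, SE, adjusted p = 0.909; -0.057 with arrays centred). The other 2 CIITA probe sets stayed at or below 77.5. The order of the arrays matched that of the DR genes, but the span was small next to theirs. NLRC5, the class I transactivator, read 148.4 against 251.9 and 225.8 (0.55 ± 0.42, SE, adjusted p = 0.519), also near the bacterial control level. The median of the 5 regulators was 0.11, or -0.057 with arrays centred.

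**Figure D4:**
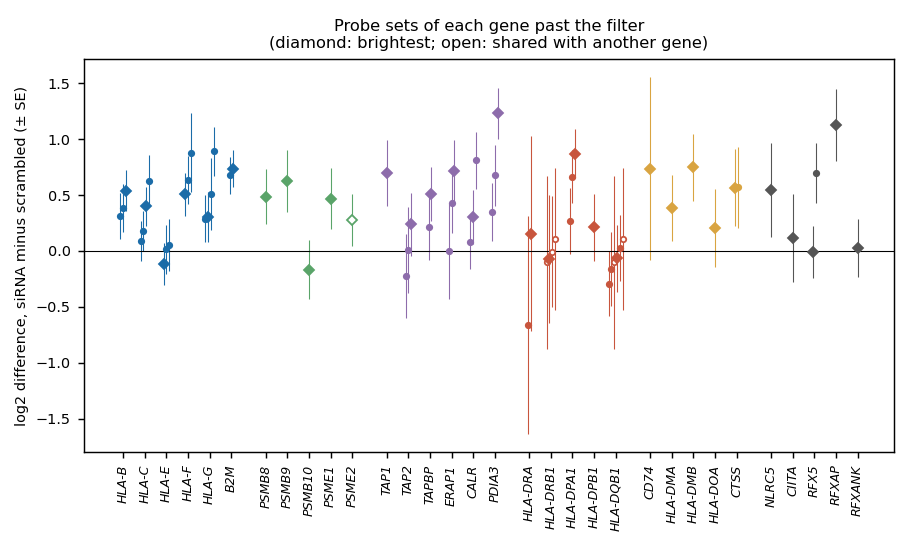
Log2 difference, siRNA minus scrambled, of each probe set past the filter (± SE from limma), grouped by gene, with shared DR beta probe sets also drawn under HLA-DQB1 where they name it; diamonds mark the brightest probe set and open symbols shared ones. B2M and HLA-F repeat across probe sets, RFX5, CALR and PDIA3 spread widely, and the DR genes and CD74 have long error bars from the gap between the siRNA arrays.

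Genes upstream of the pathway gave few differences. Among interferon receptors, kinases and factors, 16 of the 18 listed were measured, with a median of 0.27 (by array 0.048 and 0.35) and 0 past the limma threshold (1 higher and 1 lower at an unadjusted p under 0.05). The higher one was STAT3, named after its values were seen, at 1706 against 2321 and 4076 (0.83 ± 0.35, SE, adjusted p = 0.237). The lower one was IRF3. The 2 furthest from 0 were IRF3, which relays nucleic acid sensing, at 3316 against 1875 and 1470 (-0.98 ± 0.26, SE, adjusted p = 0.104), and IRF8, a myeloid factor, at 115.6 against 290.4 and 223.3 (0.89 ± 0.43, SE, adjusted p = 0.307). The scrambled signal of IRF8 lay near the bacterial control level, and its unadjusted limma p was 0.0776. IRF1, which binds interferon response elements and was named after its values were seen, read 351.1, 331.5 and 797.7 (0.51 ± 0.49, SE, adjusted p = 0.620). Its signal was high on siRNA array 2 alone.

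A list of NF-Y, CREB1 and chromatin cofactors (CREBBP, EP300 and EZH2) had a median of -0.33 over 7 measured genes (by array -0.086 and -0.45), with 0 past the limma threshold and 2 lower at an unadjusted p under 0.05. These were the NF-Y subunits NFYA, at 3593 against 1614 and 1160 (-1.36 ± 0.29, SE, adjusted p = 0.0621), and NFYB, at 2161 against 1437 and 1217 (-0.69 ± 0.26, SE, adjusted p = 0.205). Both were lower on both siRNA arrays, whereas NFYC, the remaining subunit of the trimer, read 1804 against 1817 and 2134.5 (0.12 ± 0.26, SE, adjusted p = 0.840). Other processing and class I-like genes (12 measured of 17, in 11 probe sets since MICA and MICB share 1) had a median of 0.38 over the 11 and 0 past the limma threshold, with 3 of the 11 higher at an unadjusted p under 0.05. LGMN, an endosomal asparagine-specific protease, read 1552 against 3487 and 3478 (1.14 ± 0.23, SE, adjusted p = 0.0583), and the tapasin-related gene TAPBPL read 172.2 against 314.7 and 392.3 (0.86 ± 0.39, SE, adjusted p = 0.269).

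Of the 35 genes, 19 lie within a segment of chromosome 6 from HLA-F to TAPBP. Members of that segment (18 measured) had a median of 0.39, and the other 79 measured genes there, counted once per probe set and without other HLA genes, had a median of -0.058. With arrays centred these medians were 0.22 and -0.23. Among the other genes 32 were higher on both arrays and 33 lower on both, and 1 passed the threshold, PPP1R18, which was lower (-1.38, adjusted p = 0.0383). The 14 measured members on other chromosomes had a median of 0.51, with by-array medians of 0.19 and 0.48, so that it fell to 0.19 without siRNA array 2. Of these 14, 9 were higher on both arrays and 1 was lower on both, beside 13 and 1 of the 18 inside the segment.

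**Figure D5:**
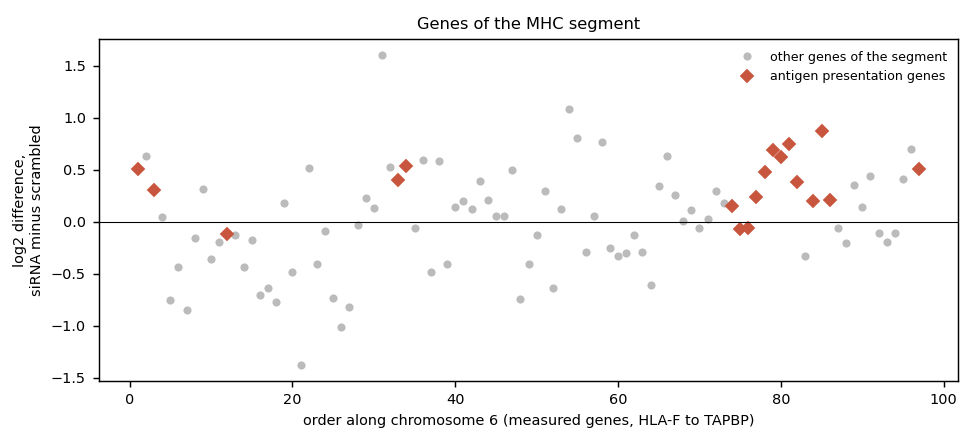
Log2 difference, siRNA minus scrambled, of measured genes in their order along chromosome 6 from HLA-F to TAPBP (diamonds, antigen presentation genes; grey circles, other genes, without other HLA genes). The diamonds lie mostly above 0, with a median of 0.39, and the grey circles scatter around it, with a median of -0.058.

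Counted by probe set, 1 of 65 passed the threshold, against 2.09% of all probe sets. On both siRNA arrays 42 were higher and 4 lower, against 46.4% and 30.9% of all probe sets tested. The 30 probe sets not past the filter had 15 higher on both arrays and 7 lower on both, and 15 of the 30 lay below 97.2 on all 3 arrays. The share over all probe sets not past the filter was not taken, so these counts are not read as a direction.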

How the data were processed

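The authors' deposited table holds linear probe set intensity values for 3 arrays, made with GCOS 1.3 per the submitters' processing notes, with a 2% trimmed mean of 1000.1 on each array; GCOS settings and genome build: not given in the sources used here. No detection calls were used. Of 54675 probe sets 62 controls were left out. Signals were taken as log2(signal + 47.4), the pseudocount being the 25th percentile, filtered at the median mean (7.74) and fitted with limma 3.58.1 in R 4.3.3 (lmFit, eBayes with trend), with Benjamini-Hochberg adjustment over all 27306 probe sets. The fit has 1 residual degree of freedom, to which moderation added 6.36; the single scrambled array is taken to vary as the siRNA arrays do. The script was tested on simulated data. Probe sets were named from the platform annotation; genes took their brightest probe set. Gene names and order, and promoters, came from RefSeq (GRCh38.p14). All members were named, with MELTF and, per pathway list, genes past the threshold or else the 2 furthest from 0. Members and lists were chosen with earlier results of these data known. Alternatives changed pseudocount, filter, scaling, moderation, probe set choice and arrays used. There were 0 value columns of other samples.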

Additional observations from a re-analysis of the deposited data

Results flagged for a closer look

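Signals of members outside the tested probe sets lay above the scrambled array and above 97.2 on both siRNA arrays in 5 probe sets, each too dim for the filter. A CTSS probe set read 93.9 against 243.9 and 144.1, at least 1.93-fold higher in the geometric mean of both arrays. For TAP2 one read 93.2 against 160.9 and 149.4 (at least 1.60-fold). The ERAP2 pair read 9.3 against 99.1 and 127.9 (at least 1.16-fold) and 79.3 against 118.6 and 101.4 (at least 1.13-fold). A CD74 probe set read 131.3 against 154 and 204.3 (1.35-fold). Bounds raise each signal to at least 97.2. Outside the genes, ribosomal RNA control probe sets had a median ratio of 3.76 between siRNA array 1 and the scrambled array.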

How the results depend on the processing

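Of 32 measured genes, 26 kept their sign in every alternative that used all arrays, and 22 (21 higher, 1 lower) also on each siRNA array alone. The count of genes called by limma was 0 with a pseudocount of 200, without a filter, with a 75th percentile filter, without the trend, with robust moderation and with the mean of each gene's probe sets (5 to 11 genes at an unadjusted p under 0.05), and 2 with arrays centred. The count of probe sets called was 0 under the same alternatives except the mean, which has none, and 2 with arrays centred and with quantile normalization. Genes lower on both arrays were 1 with quantile normalization, 5 with arrays centred and 1 with the mean of probe sets. With arrays centred the median was 0.28 for class I chains, 0.43 for class I loading, 0.26 for all members, 0.22 for members of the chromosome 6 segment and -0.23 for its other genes. It was 0.55 for class I chains with quantile normalization, 0.36 for all members with a pseudocount of 200, and with the mean of probe sets 0.39 for class I loading and 0.35 for regulators. Signs turned, always at adjusted p above the threshold, for HLA-E (0.0050), HLA-DOA (-0.0016), CIITA (-0.079) and RFXANK (-0.016) with quantile normalization, for HLA-DRA (-0.016), CIITA (-0.057) and RFXANK (-0.14) with arrays centred, and for HLA-DRA (-0.26) and RFX5 (0.35) with the mean of probe sets. The cause was not tested. Without either siRNA array in turn, which leaves values with no test, the sign turned for the 8 genes with the scrambled signal between the siRNA signals (HLA-DRA, HLA-DRB1, HLA-DPB1, HLA-DQB1, CD74, CIITA, RFX5 and RFXANK), and genes higher ranged from 22 to 30 and genes lower from 2 to 10. Medians then ranged from 0.46 to 0.49 for class I chains, 0.23 to 0.50 for the immunoproteasome, 0.51 to 0.74 for class I loading, -0.36 to 0.72 for class II chains, 0.18 to 0.66 for class II loading, -0.030 to 0.27 for regulators and 0.40 to 0.49 for all members. No comparison is possible without the scrambled array. No paired analysis was possible because the scrambled group has 1 array and shares fewer than 2 replicate numbers with the siRNA group.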
